A study of Mus musculus with 12 samples.

Results

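The genes described here are 32 genes that mark endothelial cells, the cells that line blood and lymphatic vessels, and their chromatin accessibility was compared between the fat of mice with and without BAF60a in adipocytes. By role they were the VEGF receptor genes Kdr, Flt1 and Flt4, the angiopoietin receptor genes Tek and Tie1 with the receptor phosphatase gene Ptprb, 9 genes of junction and surface proteins (Pecam1, Cdh5, Emcn, Esam, Cldn5, Robo4, Eng, Mmrn2 and Plvap), the transcription factor genes Erg, Sox7, Sox17, Sox18 and Tal1, the genes Egfl7, Vwf and Nos3 for secreted and vasoactive factors, the arterial and venous genes Dll4, Notch4, Ephb4 and Efnb2, the G protein-coupled receptor genes S1pr1 and Aplnr, and the lymphatic genes Prox1, Lyve1 and Mmrn1. Every ATAC-seq peak that the authors' tables assign to one of these symbols was taken, whatever its distance from the gene. This gave 116 of 58558 peaks in brown adipose tissue (BAT) and 62 of 39558 peaks in inguinal white adipose tissue (iWAT), 178 peaks in all.

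Adipose tissue is densely supplied with capillaries, which deliver oxygen and lipids to adipocytes, and vessels grow when fat becomes more thermogenic. Endothelial cells respond to VEGF through Kdr and Flt1, hold together through VE-cadherin (Cdh5) and claudin 5 (Cldn5), and take their identity from transcription factors of the ETS family, such as Erg, and of the SOXF group, formed by Sox7, Sox17 and Sox18. In ATAC-seq, a transposase cuts open DNA, and in whole tissue the reads at a peak add up over all cells, so that fewer endothelial cells and less accessible chromatin in each of them cannot be told apart.

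BAF60a, encoded by Smarcd1, is a subunit of SWI/SNF chromatin remodelling complexes. All mice were C57BL/6 and carried floxed BAF60a alleles, the flox mice as flox/flox controls and the AKO mice with an Adiponectin-Cre transgene besides, a driver that is active in adipocytes. BAT came from 3 flox and 3 AKO mice, each sample from 1 mouse, and the age and housing temperature of these mice are not given for this assay in the sources used here. iWAT came from mice 6 to 8 months old that had been kept for 7 days at 10 °C after stepwise cooling, and the fat of 6 mice per genotype was pooled, minced and divided into 3 aliquots. The 3 iWAT samples of a genotype therefore differ by technical spread only, and a difference between the pools carries no estimate of the spread between mice.

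The values are reads in a peak divided by the size factor of the sample, here called normalized reads. Reads in peaks ranged from 6336670 to 27500738 per sample in BAT and from 4066720 to 6691161 in iWAT. As a check of the genotype, the Smarcd1 intron 4 peak in BAT held 136, 201 and 185 normalized reads in flox and 23.7, 57.9 and 26.9 in AKO, while no iWAT peak lay there. The groups did not overlap at this peak. The BAT samples were spread along the first principal component (PC1), which held 55.6% of the variance over all peaks, with flox replicate 1 at a score of -98.2 and AKO replicate 2 at 112 as its ends. Following the study's design, PC1 entered the BAT fit as a covariate, so that a fitted log2 fold change in BAT can differ from the plain difference of the group means.

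The sequences of the peaks on which the results turn are shown first, so that the values below can be read against them. Each run is the reference sequence of mm10 (GRCm38) on the plus strand, 5′ to 3′, over 300 bp around the middle of the peak. Where a peak is narrower, as at Cldn5, the run also holds bases outside it. The S1pr1 and Sox7 start-site runs hold only the bases upstream of exon 1. Sox7, Mmrn2 and Prox1 were higher and S1pr1 lower in AKO iWAT by at least one count test, the Cdh5 and Sox17 peaks had no overlap between genotypes in either tissue, and the Cldn5 peak had the smallest p-value of these genes in BAT. Capitals mark matches on either strand to the ETS, SOX and GATA motifs, whose letters are spelled out in the next paragraph.
S1pr1 start site, chr3:115715073-115715238: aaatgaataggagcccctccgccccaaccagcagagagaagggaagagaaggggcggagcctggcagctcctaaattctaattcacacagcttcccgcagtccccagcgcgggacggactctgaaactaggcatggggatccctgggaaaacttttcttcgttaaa
Sox7 start site, chr14:63943468-63943672: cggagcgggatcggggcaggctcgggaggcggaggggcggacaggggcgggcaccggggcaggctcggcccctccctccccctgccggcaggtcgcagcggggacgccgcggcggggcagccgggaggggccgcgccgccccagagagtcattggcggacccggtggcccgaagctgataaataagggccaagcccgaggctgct
Mmrn2 intron 1, chr14:34376003-34376302: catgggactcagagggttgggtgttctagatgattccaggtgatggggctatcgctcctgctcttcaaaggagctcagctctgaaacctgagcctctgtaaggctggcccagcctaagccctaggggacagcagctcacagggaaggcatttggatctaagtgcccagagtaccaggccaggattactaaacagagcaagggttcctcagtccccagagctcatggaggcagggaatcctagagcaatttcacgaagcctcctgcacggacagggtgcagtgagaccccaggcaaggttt
Prox1 downstream, chr1:190056884-190057183: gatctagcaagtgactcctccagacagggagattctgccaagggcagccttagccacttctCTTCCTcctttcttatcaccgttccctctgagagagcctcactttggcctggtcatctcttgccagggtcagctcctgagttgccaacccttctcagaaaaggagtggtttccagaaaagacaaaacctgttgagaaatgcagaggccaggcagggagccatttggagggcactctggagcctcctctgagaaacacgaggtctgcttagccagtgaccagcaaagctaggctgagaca
Cdh5 upstream, chr8:104028630-104028929: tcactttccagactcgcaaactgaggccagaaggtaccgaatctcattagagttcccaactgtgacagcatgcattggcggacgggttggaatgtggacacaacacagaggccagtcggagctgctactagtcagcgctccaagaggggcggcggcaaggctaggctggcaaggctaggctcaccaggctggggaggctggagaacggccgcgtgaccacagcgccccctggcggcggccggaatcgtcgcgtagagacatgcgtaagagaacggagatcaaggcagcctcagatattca
Sox17 upstream, chr1:4571678-4571977: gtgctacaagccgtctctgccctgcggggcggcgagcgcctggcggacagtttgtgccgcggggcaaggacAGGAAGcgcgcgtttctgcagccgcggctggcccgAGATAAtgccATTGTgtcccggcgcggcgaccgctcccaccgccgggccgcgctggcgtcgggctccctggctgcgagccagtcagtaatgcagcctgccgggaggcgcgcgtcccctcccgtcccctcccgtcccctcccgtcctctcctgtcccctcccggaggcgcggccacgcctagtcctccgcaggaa
Cldn5 upstream, chr16:18729247-18729546: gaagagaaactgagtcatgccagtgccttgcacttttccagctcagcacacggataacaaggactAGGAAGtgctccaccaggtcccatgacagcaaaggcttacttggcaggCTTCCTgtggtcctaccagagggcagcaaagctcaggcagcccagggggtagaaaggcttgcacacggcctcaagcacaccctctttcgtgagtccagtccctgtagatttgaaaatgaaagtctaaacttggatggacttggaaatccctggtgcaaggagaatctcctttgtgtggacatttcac

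The ETS motif, AGGAAG, was in 46.6% of the central 300 bp windows of the 116 endothelial peaks in BAT, against 34.2% of all 58558 windows, and in 46.8% against 34.7% in iWAT. The SOX motif was searched as ACAAT. It was in 26.7% of the endothelial windows in BAT against 27.4% of all windows, and in 24.2% against 23.6% in iWAT. The GATA motif, AGATAA, was in 5.17% against 8.57% in BAT and 4.84% against 7.31% in iWAT. The core of PPAR binding sites, AGGTCA, was in 24.1% against 22.9% and 25.8% against 19.0%. The composite AACAGGAA of FOX and ETS factors was in 2 windows in each tissue, 1.72% in BAT and 3.23% in iWAT, against 2.42% of all windows in both. All motifs were searched on both strands, and the composite can share letters with an ETS match. The median GC content of the windows was 55.2% for the endothelial peaks and 52.3% for all peaks in BAT, and 56.3% and 54.7% in iWAT. The matches describe sequence and not binding.

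Of the 32 genes, 30 had at least 1 peak in BAT and 23 in iWAT, and no gene had a peak in iWAT alone. Lyve1, a hyaluronan receptor of lymphatic endothelium, and Mmrn1 had no peak in either tissue, and Flt4, Tie1, Emcn, Robo4, Ptprb, Notch4 and Aplnr had none in iWAT. Cdh5 had 10 peaks in BAT, and Egfl7 and Efnb2 had 6 each in iWAT. A peak lay over the start site of the principal transcript of 14 genes in BAT (Cldn5, Dll4, Efnb2, Eng, Ephb4, Esam, Flt1, Kdr, Nos3, Notch4, Ptprb, S1pr1, Sox7 and Tie1) and of 9 in iWAT (Efnb2, Eng, Ephb4, Esam, Flt1, Kdr, Nos3, S1pr1 and Sox7). Neither Cdh5 nor Pecam1, which are defining markers of these cells, had a start-site peak in either tissue. In BAT 69 of the 116 peaks lay outside the gene they were assigned to, 33 inside it and 14 over its start site, and in iWAT these numbers were 34, 19 and 9. The median endothelial peak held 82.7 normalized reads in BAT, where the median of all peaks was 125, and 52.5 in iWAT, where it was 70.0.

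In BAT, no endothelial peak passed an adjusted p of 0.1 by limma with Benjamini-Hochberg adjustment over all 58558 peaks, of which 0% passed, and the smallest adjusted p among the endothelial peaks was 0.440. At an unadjusted p under 0.05, 5 endothelial peaks were lower and 5 higher in AKO, where 5.59% of all peaks were lower and 3.46% higher. DESeq2, run on the whole reads recovered by undoing the size factors, called none of the 67 endothelial peaks that it gave an adjusted p, against 0.298% of all such peaks lower and 0.11% higher, and edgeR called none of the 116, against 0.108% of all peaks lower and 0.0273% higher. Every AKO sample lay below every flox sample at 4 peaks and above at 13 peaks, the 13 from 11 genes, against 8.84% of all peaks lower and 8.77% higher. With the log2 values centred within 20 classes of GC content, the endothelial peaks split into 5 lower and 9 higher and all peaks into 6223 and 3872, from 5175 and 5134, and with scaling to total reads they split into 2 and 14 and into 3939 and 6043. Of the 4 lower and 13 higher peaks, 1 and 7 kept the genotypes apart under all 5 scalings, which were the deposited one, total reads, TMM, cyclic loess and GC centring.

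The median difference of mean log2(normalized reads + 1) between AKO and flox was 0.22 over the 116 BAT peaks and -0.01 over all peaks, and 84 of the 116 differences were above 0. With PC1 in the fit, the median log2 fold change was 0.02, against 0.01 over all peaks, with 62 of 116 above 0, and 42 peaks had opposite signs in the fit and in the means. The median deviation of the endothelial peaks from their mean over the 6 samples was -0.19, -0.07 and 0.00 in the flox samples and 0.02, 0.25 and 0.00 in the AKO samples, on the log2 scale. AKO replicate 2 was the highest sample at 48 of the 116 peaks, 41.4% against 29.6% of all peaks, and flox replicate 1 the lowest at 45, 38.8% against 25.0%. These are the samples at the ends of PC1. They were also the deepest BAT library, flox replicate 1 with 27500738 reads in peaks, and the shallowest, AKO replicate 2 with 6336670. BAT peaks with a mean under 100 normalized reads, which made up 57.8% of the endothelial peaks and 41.7% of all peaks, had deviations of -0.18, -0.02 and 0.06 in flox and 0.01, 0.26 and -0.02 in AKO over the whole table. The part of signal strength, depth and PC1 in the endothelial difference was not tested.

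**Figure D1:**
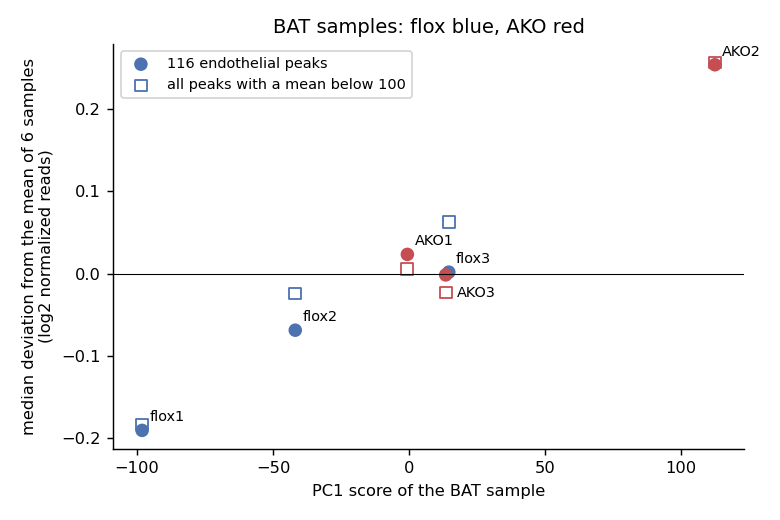
The median deviation of a BAT sample from the 6-sample mean (log2 normalized reads) is plotted against its PC1 score for the 116 endothelial peaks (filled circles) and for all peaks with a mean below 100 normalized reads (open squares), flox in blue and AKO in red. Flox replicate 1 lies lowest at -0.19 and AKO replicate 2 highest at 0.25 for the endothelial peaks, and the open squares lie close to both.

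In iWAT, limma again called no endothelial peak at an adjusted p of 0.1, as it called 0% of all 39558 peaks, and the smallest adjusted p with Benjamini-Hochberg adjustment was 0.149, at the S1pr1 start site. At an unadjusted p under 0.05, 7 endothelial peaks were lower and 9 higher in AKO, against 7.42% of all peaks lower and 7.61% higher. DESeq2 gave 54 endothelial peaks an adjusted p and called 1 lower and 0 higher, against 0.63% of all such peaks lower and 0.546% higher. The quasi-likelihood test of edgeR called 2 of the 62 lower, both at S1pr1, and 3 higher, at Mmrn2, Prox1 and Sox7, against 2.54% of all peaks lower and 2.14% higher. Counts this small do not set the endothelial peaks apart from the whole table. Every AKO aliquot lay below every flox aliquot at 7 peaks of 5 genes and above at 12 peaks of 8 genes, against 10.3% of all peaks lower and 10.6% higher. After centring within GC classes, the split was 8 lower and 7 higher for the endothelial peaks and 4424 and 3650 for all peaks, from 4069 and 4184. Of the 7 lower and 12 higher peaks, 6 and 7 kept the genotypes apart under all 5 scalings. The median log2 fold change of the 62 peaks was 0.14, against 0.00 over all peaks, with 37 of 62 above 0, and centring within GC classes lowered this median to 0.07.

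**Figure D2:**
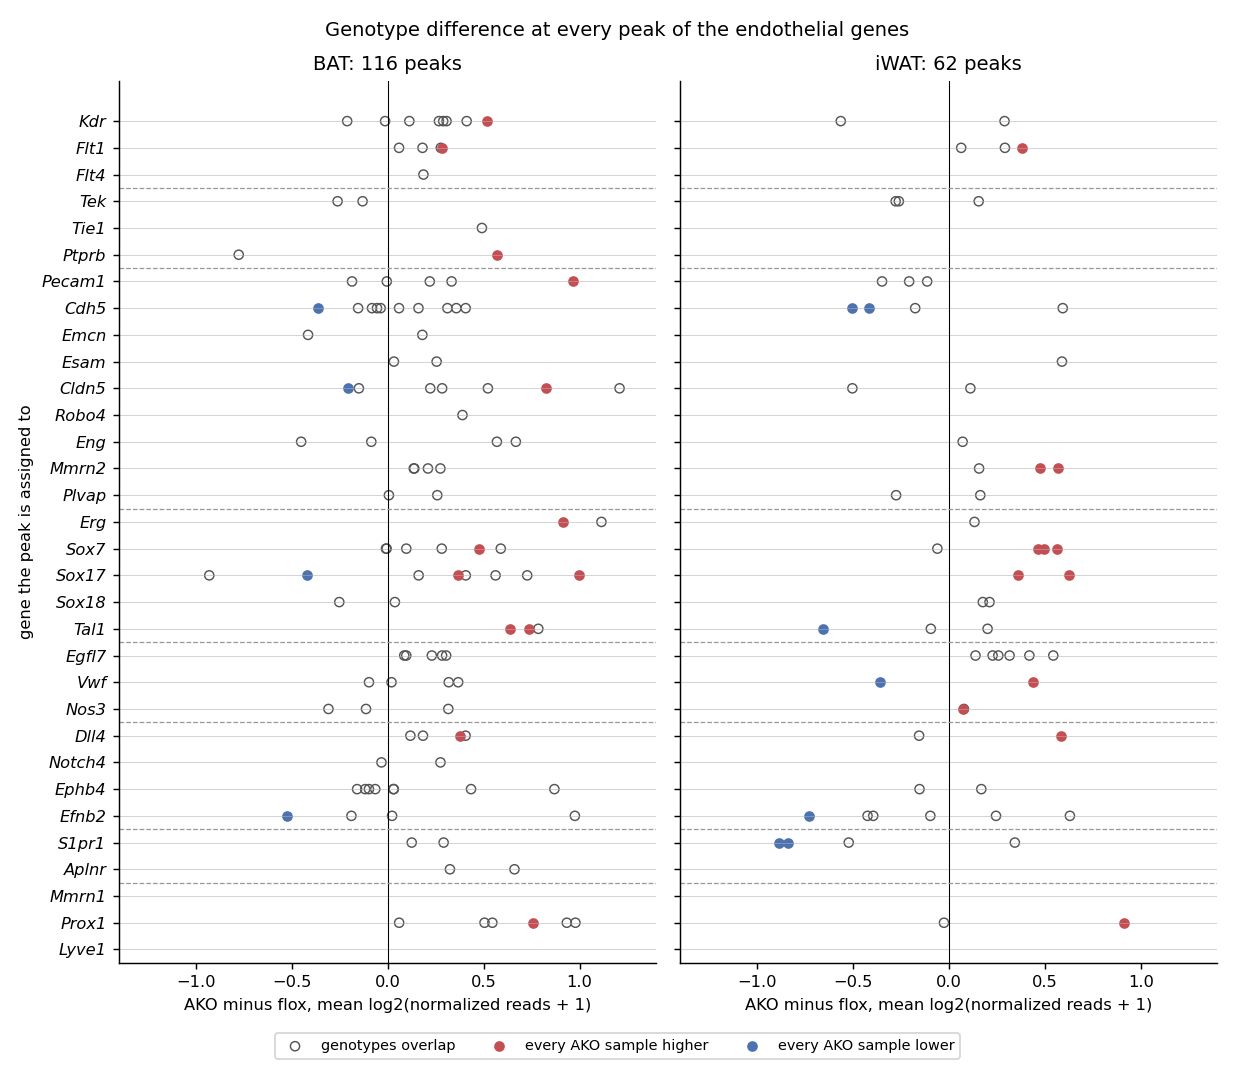
Each circle is a peak, placed by the difference between AKO and flox in mean log2(normalized reads + 1) and in the row of the gene it was assigned to, with BAT at left and iWAT at right and dashed lines between roles. Filled circles mark peaks where the samples of the genotypes did not overlap, 4 lower (blue) and 13 higher (red) in BAT and 7 lower and 12 higher in iWAT, and the rows of Mmrn1 and Lyve1 are empty in both.

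The endothelial peak with the smallest p-value in either tissue was at S1pr1, which encodes the sphingosine-1-phosphate receptor that endothelial cells use to maintain their barrier. Its iWAT start-site peak (chr3:115714762-115715415) held 112, 105 and 118 normalized reads in flox and 68.0, 58.2 and 59.9 in AKO. All AKO aliquots lay well under the lowest flox aliquot. The log2 fold change was -0.84 with a standard error (SE) of 0.13, and the Benjamini-Hochberg adjusted p was 0.149 by limma, 0.0247 by DESeq2 and 0.0072 by edgeR. The DESeq2 call held without flox replicate 2 (adjusted p 0.0444) and was lost without flox replicate 1 (0.353) or 3 (0.272) and without AKO replicate 1 (0.138), 2 (0.246) or 3 (0.218), while the log2 fold change stayed between -0.92 and -0.81.

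The second S1pr1 peak, in exon 2 at 2834 bp from the start site (chr3:115712018-115712458), held 40.6, 58.9 and 49.9 normalized reads in flox and 29.97, 19.4 and 31.0 in AKO iWAT. Here too the aliquots of the genotypes did not overlap. Its log2 fold change was -0.88 (SE 0.22), with a Benjamini-Hochberg adjusted p of 0.177 by limma, 0.213 by DESeq2 and 0.084 by edgeR. The remaining iWAT peaks of S1pr1, 73134 and 167189 bp downstream, differed by -0.52 and 0.34 on the log2 scale, with overlapping groups. In BAT the start-site peak of S1pr1 covered the same DNA and held 172, 211 and 207 normalized reads in flox and 209, 241 and 194 in AKO, which overlapped, with a mean log2 difference of 0.12 and a fitted log2 fold change of -0.07 (SE 0.18). The difference between the tissues was not tested. Aplnr, the apelin receptor gene, had 2 BAT peaks with mean log2 differences of 0.32 and 0.66 and fitted values of -0.23 and -0.33, all with overlapping groups.

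The transcription factor genes had 21 peaks in BAT and 12 in iWAT. In BAT, 6 of the 21 lay higher without overlap and 1 lower, where 8.77% of all peaks lay higher and 8.84% lower. In iWAT these counts were 5 and 1 of 12, against 10.6% of all peaks higher and 10.3% lower, and the difference from all peaks was not tested. The median mean difference was 0.41 in BAT, where the fit with PC1 gave 0.12, and 0.21 in iWAT. Under total reads, TMM, cyclic loess and GC-centred scaling, 5 or 6 peaks were higher without overlap in BAT and 4 or 5 in iWAT.

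Sox7, a SOXF factor of early and adult endothelium, accounted for 3 of the 5 higher peaks in iWAT. After GC centring, Sox7 had 2 higher peaks and 1 lower peak without overlap. Its start-site peak (chr14:63943381-63943854) held 96.9, 118 and 127 normalized reads in flox and 153, 164 and 164 in AKO. The highest flox aliquot lay under the lowest AKO aliquot. The log2 fold change was 0.50 (SE 0.15), with Benjamini-Hochberg adjusted p-values of 0.205 by limma, 0.165 by DESeq2 and 0.0607 by edgeR.

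A further iWAT peak of Sox7 lay at -26337 bp, upstream of the start site and within the gene Pinx1 (chr14:63917190-63917483), and held 52.7, 45.6 and 60.3 normalized reads in flox and 73.8, 90.2 and 71.6 in AKO. The groups did not overlap, and the log2 fold change was 0.56 (SE 0.16), with a limma Benjamini-Hochberg adjusted p of 0.201. Over the same sites in BAT, the fitted values were 0.17 at the start site and 0.57 upstream, with mean differences of -0.01 and 0.10 and overlapping groups. The BAT peak of Sox7 with the smallest p-value lay at -2625 bp (chr14:63940913-63941183) and held 55.4, 65.0 and 40.1 normalized reads in flox and 70.1, 46.4 and 80.6 in AKO. AKO replicate 2 lay within the flox values, and the mean log2 difference was 0.28 against a fitted 0.72 (SE 0.25), with a limma Benjamini-Hochberg adjusted p of 0.504.

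Sox17, a SOXF factor of arterial endothelium, had 8 peaks in BAT and 2 in iWAT, with differences in both directions. Its BAT peak with the smallest p-value, at -23158 bp (chr1:4519469-4519673), held 35.0, 44.3 and 38.8 normalized reads in flox and 18.6, 40.6 and 10.6 in AKO. AKO replicates 1 and 3 lay under all flox mice, and AKO replicate 2 lay among them. The mean log2 difference was -0.93 and the fitted log2 fold change -1.57 (SE 0.43), with a limma Benjamini-Hochberg adjusted p of 0.466, and leaving out each sample in turn gave values from -2.26 to -1.03.

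Other Sox17 peaks are described because their groups did not overlap, a choice made after their values were seen. At -29579 bp in BAT the flox mice held 57.5, 80.5 and 105 normalized reads and the AKO mice 131, 203 and 149. This peak was higher in every AKO mouse, with a mean log2 difference of 0.999 and a fitted value of 0.48 (SE 0.18), and DESeq2 without PC1 called it at a Benjamini-Hochberg adjusted p of 0.0763. It was the 1 endothelial peak of 116 that this fit called, where it called 0.512% of all peaks higher and 0.517% lower. At -53707 bp in BAT the values were 145, 160 and 151 in flox and 111, 110.1 and 119 in AKO, lower in every AKO mouse, with a mean log2 difference of -0.42. The peak shown above, at -75414 bp in iWAT (chr1:4571591-4572063), held 30.7, 53.4 and 49.1 normalized reads in flox and 74.9, 58.2 and 69.5 in AKO, and the BAT peak over it held 193, 151 and 195 in flox and 240.2, 239.5 and 213 in AKO. It was higher in every AKO sample of both tissues, although after GC centring the BAT groups overlapped. In iWAT the log2 fold change was 0.63 (SE 0.23), with a limma Benjamini-Hochberg adjusted p of 0.266. In BAT the mean log2 difference was 0.37. The fitted value there was 0.33, with a limma Benjamini-Hochberg adjusted p of 0.678.

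**Figure D3:**
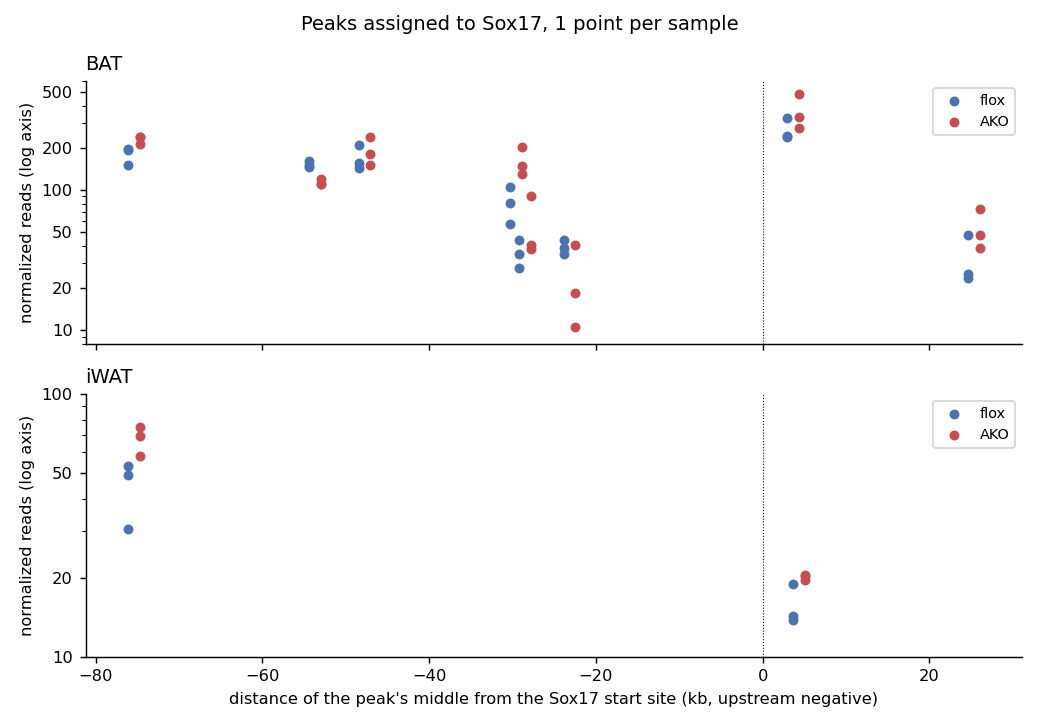
Normalized reads (log axis) of each sample are plotted at the distance of the peak's middle from the Sox17 start site in kb, flox in blue and AKO in red, with BAT above and iWAT below. The AKO points lie above the flox points at the peak farthest upstream in both tissues, while at -53707 bp in BAT all AKO points, between 110.1 and 119, lie under the flox points.

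Tal1, a factor of blood and endothelial development, had opposite differences in the tissues at its intron 1. The iWAT peak (chr4:115057271-115057470) held 25.7, 27.8 and 16.4 normalized reads in flox and 16.1, 11.4 and 15.0 in AKO. The groups did not overlap, although flox replicate 3 came within 1 read of AKO replicate 1, and the log2 fold change was -0.66 (SE 0.23), with a limma Benjamini-Hochberg adjusted p of 0.253. In BAT, a wider peak over this site held 88.8, 115 and 128 normalized reads in flox and 137, 218 and 167 in AKO, higher in every AKO mouse, with a mean log2 difference of 0.64 and a fitted value of 0.23 (SE 0.18). Erg, an ETS factor needed for vessel stability, had 2 BAT peaks with mean log2 differences of 0.92 and 1.11 and fitted values of 0.22 and 0.02, and 1 iWAT peak at 0.13. Sox18, the third SOXF gene, had 2 BAT peaks with mean log2 differences of -0.25 and 0.04 and fitted values of -0.32 and -0.03, and 2 iWAT peaks at 0.18 and 0.21, all with overlapping groups.

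The 9 junction and surface protein genes had 37 peaks in BAT, 2 lower and 2 higher without overlap, and 16 in iWAT, again 2 lower and 2 higher. In BAT these counts lay under the 8.84% and 8.77% of all peaks, and in iWAT close to 10.3% and 10.6%. Their median log2 fold change was -0.04 in BAT, where the median mean difference was 0.18, and -0.02 in iWAT. The genes within this group differed in direction.

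Cdh5, the VE-cadherin gene, had upstream peaks with differences in both directions, of which 1 in BAT and 2 in iWAT were lower without overlap. In BAT the peak at -73326 bp (chr8:104027601-104028997) held 301, 325 and 322 normalized reads in flox and 216, 296 and 230.3 in AKO. The groups did not overlap, with AKO replicate 2 just under flox replicate 1, but they overlapped when scaled to total reads or by cyclic loess. The mean log2 difference was -0.36 and the fitted log2 fold change -0.57 (SE 0.18), with a limma Benjamini-Hochberg adjusted p of 0.489.

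In iWAT, a narrower peak inside this region, at -72846 bp (chr8:104028634-104028924), held 77.0, 83.4 and 72.3 normalized reads in flox and 56.5, 62.8 and 54.5 in AKO. A second iWAT peak, at -78425 bp (chr8:104022889-104023512), held 111, 107 and 93.8 in flox and 80.7, 71.9 and 66.3 in AKO. Both were lower in every AKO aliquot, with log2 fold changes of -0.41 (SE 0.13) and -0.51 (SE 0.14) and limma Benjamini-Hochberg adjusted p-values of 0.227 and 0.195. The other 9 Cdh5 peaks in BAT had overlapping groups, with mean log2 differences from -0.15 to 0.41 and fitted values from -0.53 to 0.13. The other 2 in iWAT, at -220699 and -220386 bp, had log2 fold changes of 0.59 (SE 0.23) and -0.18 (SE 0.24), also with overlapping groups.

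Mmrn2 encodes the endothelial matrix protein multimerin 2. Of its 3 iWAT peaks, 2 were higher in AKO without overlap, and the other had a log2 fold change of 0.16 with overlapping groups. The Mmrn2 intron 1 peak (chr14:34376026-34376278) held 68.4, 73.4 and 74.0 normalized reads in flox and 107, 113 and 102 in AKO. Every AKO aliquot lay above every flox aliquot, with little spread within either group. The log2 fold change was 0.57 (SE 0.12), with Benjamini-Hochberg adjusted p-values of 0.151 by limma, 0.176 by DESeq2 and 0.0752 by edgeR.

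The Mmrn2 exon 6 peak (chr14:34397956-34398278) held 42.8, 35.6 and 46.5 normalized reads in flox and 55.3, 59.4 and 58.8 in AKO iWAT. It was higher in every AKO aliquot, with a log2 fold change of 0.47 (SE 0.15) and a limma Benjamini-Hochberg adjusted p of 0.215. Over the same sites in BAT, the fitted log2 fold changes were 0.29 and 0.32 and the mean differences 0.14 and 0.27, with overlapping groups.

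Cldn5, the claudin of tight junctions, had the BAT peak with the smallest p-value of all 116, at -47451 bp (chr16:18729294-18729498). It held 31.9, 32.5 and 24.6 normalized reads in flox and 47.4, 56.0 and 55.6 in AKO. The lowest AKO mouse lay clearly above the highest flox mouse. The mean log2 difference was 0.82 and the fitted log2 fold change 0.89 (SE 0.22), with Benjamini-Hochberg adjusted p-values of 0.440 by limma and 0.462 by edgeR, and no endothelial peak of iWAT overlapped it. The Cldn5 peak at -29251 bp was lower in every AKO mouse, with means of 57.9 in flox and 49.98 in AKO, a mean log2 difference of -0.21 and a fitted value of -0.27 (SE 0.19), but its groups overlapped under total reads and TMM scaling. The Cldn5 start-site peak in BAT had a mean of 205 in flox and 253 in AKO, a mean log2 difference of 0.28 and a fitted log2 fold change of -0.02.

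At Robo4, an endothelial guidance receptor gene with 1 peak, in intron 2 (chr9:37402786-37403156), the BAT values were 28.2, 39.9 and 86.7 in flox and 39.2, 112 and 50.9 in AKO. The groups overlapped widely, and flox replicate 3 and AKO replicate 2 were the high samples. The mean log2 difference was 0.39 and the fitted log2 fold change -0.72 (SE 0.21), so that the direction depended on the PC1 term, and the limma Benjamini-Hochberg adjusted p was 0.476. Pecam1 had 5 peaks in BAT, 1 of them higher without overlap, with mean log2 differences from -0.19 to 0.97 and fitted values from -0.54 to 0.42, and 3 in iWAT with values from -0.35 to -0.11. Emcn (2 BAT peaks), Esam (2 in BAT and 1 in iWAT), Eng (4 and 1) and Plvap (2 and 2) had overlapping groups at every peak. Their largest fitted log2 fold change was 0.59, at the Esam start site in iWAT, and their largest mean log2 difference was 0.67, at the Eng peak at -8433 bp in BAT, where the fitted value was 0.26.

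**Figure D4:**
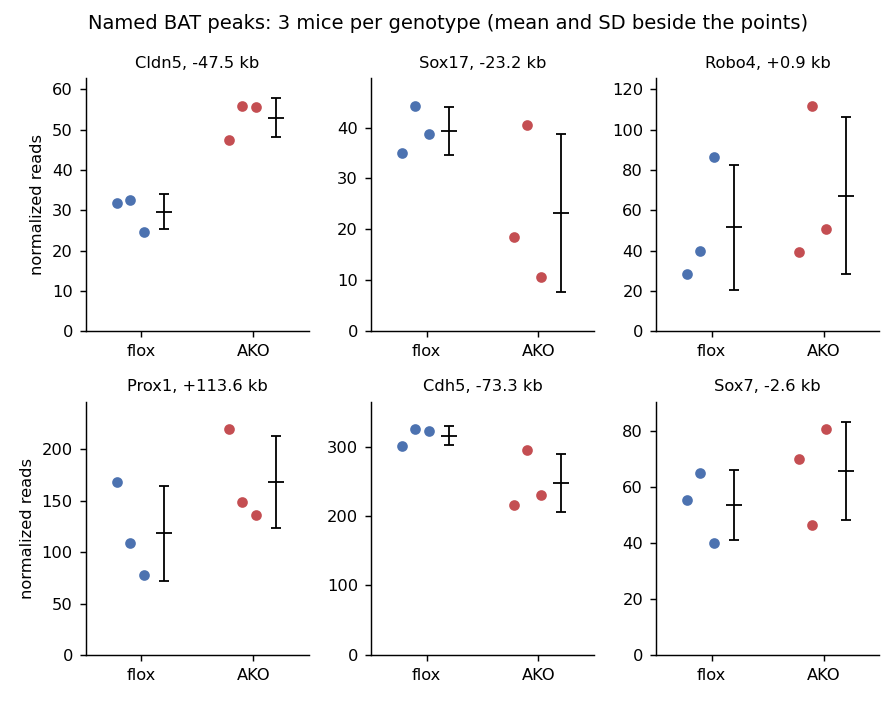
Normalized reads of the 3 flox (blue) and 3 AKO (red) BAT mice at the 6 endothelial peaks with the smallest p-values in BAT, with the mean and SD beside the points and the distance from the start site in each title. The genotypes are apart at the Cldn5 and Cdh5 peaks, and at the Sox17, Robo4, Prox1 and Sox7 peaks they overlap.

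**Figure D5:**
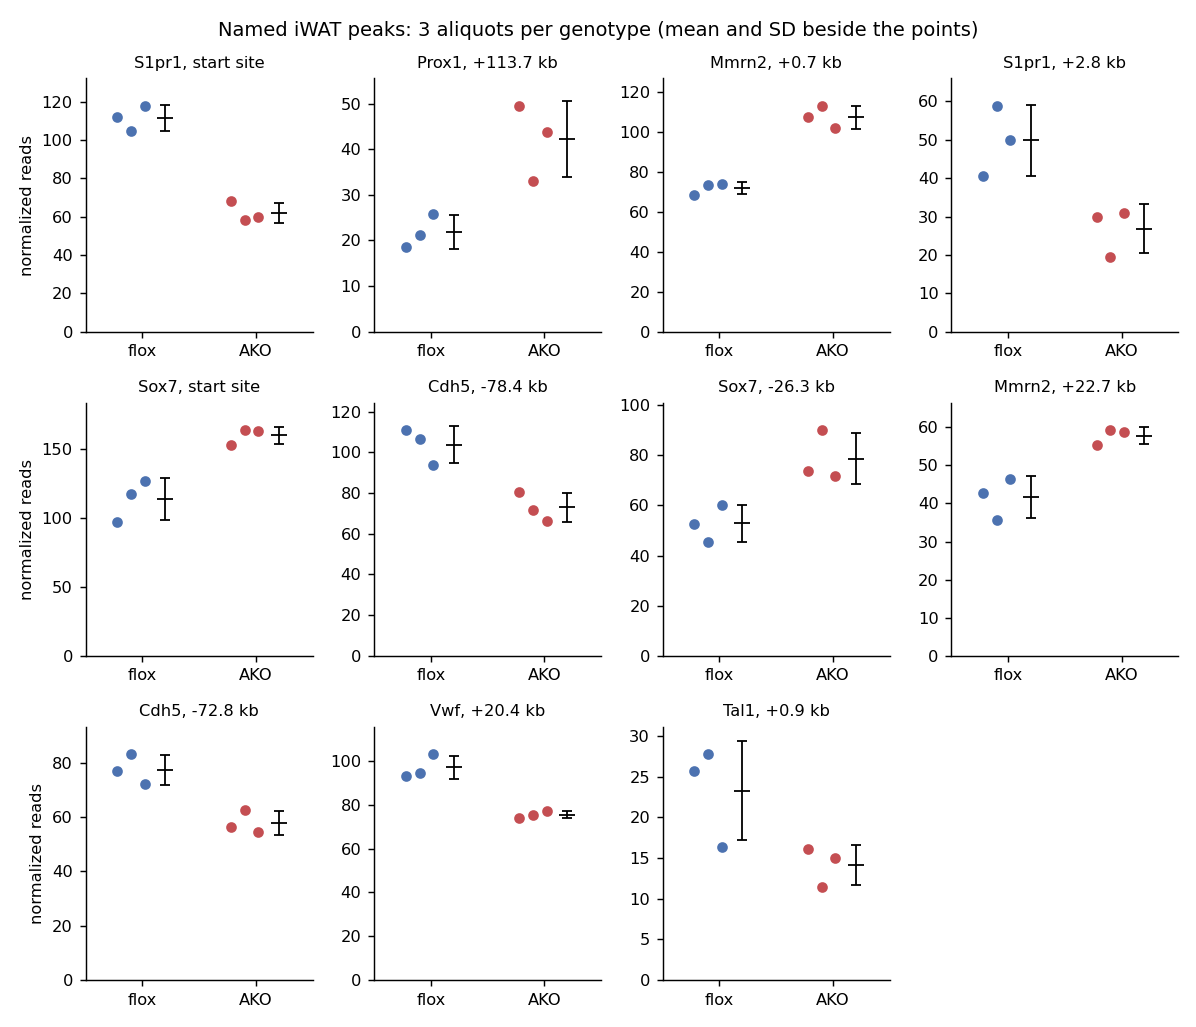
Normalized reads of the 3 flox (blue) and 3 AKO (red) iWAT aliquots at the 11 endothelial peaks chosen by a call or by their p-values, with the mean and SD beside the points. The aliquots of the genotypes do not overlap in any of the 11 panels, and the S1pr1 start-site panel goes from values of 105 to 118 in flox to values of 58.2 to 68.0 in AKO.

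The VEGF receptor genes had 13 peaks in BAT, of which 11 had a mean difference above 0 and 8 a fitted value above 0, and 5 in iWAT, 4 of them above 0. Kdr, the main signalling receptor for VEGF-A, had a BAT start-site peak with 66.4, 77.6 and 95.7 normalized reads in flox and 95.9, 151 and 102 in AKO, given here, like the next gene, because its groups did not overlap. AKO replicate 1 exceeded flox replicate 3 by less than 1 read, and the mean log2 difference of 0.52 shrank to 0.08 (SE 0.17) in the fit with PC1, while the groups overlapped under total reads and TMM scaling. Flt1, the receptor that also acts as a trap for VEGF, had a BAT start-site peak with 375, 337 and 345 in flox and 386, 502 and 406 in AKO. Again the separation was small, with a mean log2 difference of 0.28 and a fitted value of 0.17 (SE 0.20), and after centring within GC classes no peak of the VEGF receptor genes was without overlap in BAT. At the Kdr and Flt1 start sites in iWAT, the log2 fold changes were 0.29 (SE 0.25) and 0.06 (SE 0.12), and Flt4, the lymphatic VEGF-C receptor gene, had 1 peak, in BAT, with a mean difference of 0.19 and a fitted value of -0.35.

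Of the angiopoietin receptor genes, Tek had 2 peaks in BAT with mean log2 differences of -0.26 and -0.13 and fitted values of -0.21 and 0.02, and 3 in iWAT with values from -0.28 to 0.16. The Tie1 start-site peak in BAT had a mean log2 difference of 0.49 and a fitted value of 0.11 (SE 0.27). The groups overlapped at all of these. The start-site peak of Ptprb, whose product removes phosphate from Tek, was higher in every AKO BAT mouse, with means of 52.2 in flox and 77.8 in AKO, a mean log2 difference of 0.57 and a fitted value of 0.28 (SE 0.25), and its groups overlapped after GC centring. Its intron 8 peak differed the other way in the means, 45.7 in flox and 26.01 in AKO, with a mean log2 difference of -0.78, a fitted value of 0.00 (SE 0.25) and overlapping groups.

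Egfl7, which encodes a matrix factor secreted by endothelial cells, had log2 fold changes above 0 at all 6 of its iWAT peaks, from 0.14 to 0.54, also under each of the other 4 scalings. None of these peaks was free of overlap, and the adjusted p of the highest, in intron 2, was 0.289 by limma with Benjamini-Hochberg adjustment. Its 5 BAT peaks had mean differences above 0 and fitted values from -0.42 to 0.31.

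Vwf, the gene of the clotting glycoprotein von Willebrand factor, had iWAT peaks of opposite direction. Its intron 6 peak (chr6:125573221-125573564) held 93.4, 94.5 and 103 normalized reads in flox and 73.8, 75.4 and 77.0 in AKO. It was lower in every AKO aliquot, with a log2 fold change of -0.36 (SE 0.12) and a limma Benjamini-Hochberg adjusted p of 0.247, whereas its exon 14 peak was higher without overlap, at 0.44 (SE 0.19), except after GC centring. Nos3, the endothelial nitric oxide synthase gene, had an iWAT start-site peak that was higher without overlap by only 0.07 (SE 0.12) on the log2 scale, also except after GC centring. Its start-site peak in BAT had a mean log2 difference of -0.31 and a fitted value of 0.00, with overlapping groups.

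The arterial and venous genes Dll4, Notch4, Ephb4 and Efnb2, which encode a Notch ligand and receptor and an ephrin receptor and ligand, had 18 peaks in BAT and 10 in iWAT, each with 1 lower and 1 higher peak without overlap, under the 8.84% and 8.77% of all peaks in BAT and close to 10.3% and 10.6% in iWAT. Their median log2 fold changes were 0.06 in BAT and -0.12 in iWAT. In BAT the lower peak lay 325470 bp downstream of the Efnb2 start site. Its mean log2 difference was -0.53 and its fitted value -0.32 (SE 0.20). The higher peak, at -3121 bp from the Dll4 start site, had 0.37 and 0.47 (SE 0.27). In iWAT the same genes gave -0.73 (SE 0.27) and 0.58 (SE 0.21) at other peaks, 361030 bp downstream for Efnb2 and at -13143 bp for Dll4. The groups of all 4 peaks overlapped after GC centring, those of both Dll4 peaks also with cyclic loess, and those of the iWAT Dll4 peak also when scaled to total reads. After GC centring, 1 other Efnb2 peak was lower without overlap in each tissue. The Dll4 start site in iWAT lay in a peak that the table assigns to Gm14207, with 46.3, 55.6 and 33.6 normalized reads in flox and 56.5, 66.2 and 74.8 in AKO. Of the 8 Ephb4 peaks in BAT, 4 lay in the neighbouring gene Zan, and none of the 8 was free of overlap.

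Prox1, the master transcription factor of lymphatic endothelium, was the lymphatic gene with peaks, 6 in BAT and 2 in iWAT. At 113681 bp downstream of its start site, the iWAT peak (chr1:190056879-190057188) held 18.5, 21.1 and 25.8 normalized reads in flox and 49.6, 33.1 and 43.8 in AKO. The AKO aliquots all lay higher, and the log2 fold change of 0.91 (SE 0.20) was the largest positive value among the 62 iWAT peaks. The Benjamini-Hochberg adjusted p was 0.151 by limma, 0.202 by DESeq2 and 0.0867 by edgeR.

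The BAT peak over the same site (chr1:190056894-190057414) held 168, 109 and 77.6 normalized reads in flox and 220, 149 and 136 in AKO. Flox replicate 1 lay above 2 of the AKO mice, so that the groups overlapped. The mean log2 difference was 0.55 and the fitted value 1.04 (SE 0.31), with a limma Benjamini-Hochberg adjusted p of 0.476. All 6 BAT peaks of Prox1 had mean differences above 0, from 0.06 to 0.98, while 3 had fitted values above 0.

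Of the 62 endothelial peaks in iWAT, 46 (74.2%) overlapped an endothelial peak in BAT by at least 1 bp, and 45 of the 116 BAT peaks (38.8%) overlapped such a peak in iWAT. Over these 46 pairs, the mean differences of the tissues had the same sign in 32, and the fitted values in 29. The tables were normalized separately and share no sample. At 2 pairs the genotypes were apart in the same direction in both tissues, the lower Cdh5 peak and the higher Sox17 peak upstream, and at 1 pair, in Tal1 intron 1, in opposite directions. The BAT groups overlapped at the Cdh5 pair under total reads and cyclic loess and at the Sox17 pair after GC centring, while the Tal1 pair stayed apart under all 5 scalings. The shares of overlapping peaks and the counts of shared signs and separated pairs were not compared with those of all BAT and iWAT peaks. They therefore do not set the endothelial pairs apart from other peaks.

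The endothelial genes were set beside lists of other genes, whose counts without overlap can be read against 8.84% lower and 8.77% higher of all peaks in BAT and 10.3% and 10.6% in iWAT. A list of 35 other endothelial genes had 118 peaks in BAT, 7 lower and 10 higher without overlap with a median log2 fold change of 0.00, and 85 in iWAT, 12 lower and 4 higher with a median of -0.09. Ligands and other angiogenic signals (28 genes) had 232 and 143 peaks, with 20 lower and 21 higher in BAT and 15 lower and 9 higher in iWAT, and medians of -0.02 and -0.04. The endothelial peaks had a median of 0.14 in iWAT, or 0.07 after GC centring, and the difference between lists was not tested.

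Summed over all its peaks, the endothelial list held 14689 to 15195 normalized reads in flox and 15457 to 17221 in AKO BAT, and 3919 to 4382 in flox and 4262 to 4299 in AKO iWAT. The 14 adipocyte genes held 49940 to 58857 in flox and 35154 to 46356 in AKO BAT, with 43 of their 92 peaks lower and 5 higher without overlap, and 10146 to 12425 against 10565 to 11804 in iWAT, where 4 of 52 were lower and 5 higher. Mural cell genes held 8308 to 9037 against 7038 to 8252 in BAT and 2064 to 2077 against 2108 to 2155 in iWAT, with 6 lower and 7 higher of 38 peaks and 2 and 4 of 30. Fibroblast genes held 3391 to 3641 against 3389 to 3884 in BAT and 2968 to 3065 against 2547 to 2907 in iWAT, with 4 and 9 of 30 peaks and 5 and 2 of 34. Myeloid genes held 521 to 648 against 637 to 724 in BAT and 542 to 583 against 446 to 543 in iWAT, on 5 and 10 peaks with none and 3 without overlap, and lymphocyte genes 436 to 480.0 against 455 to 691 and 60.0 to 74.9 against 75.9 to 92.2, on 5 BAT peaks, none without overlap, and 1 iWAT peak, which was higher without overlap. The defining markers Cd68, Lyz2, Cd3e, Cd4, Cd8a and Cd79a had no peak in either tissue. The part of these cell types in the endothelial differences was not tested.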

How the data were processed

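Nuclei from BAT and iWAT were assayed by ATAC-seq with paired-end reads, and the longer iWAT reads were trimmed to the BAT read length. Per the labels and the study's methods, the authors mapped reads to mm10 with BWA 0.7.17-r1188, marked duplicates with Picard 2.8.14, kept autosomal reads of high mapping quality, called broad peaks with MACS2 2.1.1.20160309 and counted reads in the union of peaks found in at least 2 replicates of a genotype. The signal values deposited by the authors are these counts divided by a size factor per sample, in a separate table for each tissue. Dividing each column by its smallest step gave whole reads for 100% of values (within 0.01), so that the median peak held 70 to 226 reads in BAT and 62 to 98 in iWAT, which limits precision at weak peaks. All 12 sample columns were used (0 unused). The tables also hold the fold changes and p-values of the authors' own DESeq2 fit, which were not used.

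AKO was compared with flox in each tissue with lmFit and eBayes of limma 3.58.1 on log2(normalized reads + 1) over all peaks, with PC1 as a covariate in BAT, Benjamini-Hochberg adjustment and a threshold of 0.1. DESeq2 1.42.0 and edgeR 4.0.16 on the recovered reads were alternatives, in R 4.3.3, beside those of the closing section. The members and the gene lists were chosen with earlier results of these data known, so counts over them are descriptions. Values per sample were given for peaks called by limma, DESeq2 or edgeR and for the 12 further endothelial peaks with the smallest limma p-values. Outside this rule, they were given for Smarcd1, for other Sox17 peaks and for the BAT start sites of Kdr, Flt1 and S1pr1. The same holds for Tal1 intron 1 in BAT and the Gm14207 peak over the Dll4 start site in iWAT. Deposited starts count from 0 and are printed from 1, and distances run from the start of the principal GENCODE transcript to the middle of a peak. The fits were also run on simulated counts with the same spread setting for every peak. Samples there differed only by depth and genotype, so this run cannot check how the BAT fit handles PC1.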

Additional observations from a re-analysis of the deposited data

Results flagged for a closer look

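The Tal1 intron 1 peak had opposite differences in the tissues. In BAT all AKO mice lay above all flox mice, with a mean log2 difference of 0.64 and a fitted value of 0.23. In iWAT all AKO aliquots lay below all flox aliquots, with a log2 fold change of -0.66. The difference between the tissues was not tested, the pair was the only one of 46 overlapping endothelial pairs with separated groups in opposite directions, and the iWAT peak held 11.4 to 27.8 normalized reads per aliquot.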

How the results depend on the processing

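Of the values for groups of peaks, 150 were counted as unchanged and 19 as moved, by the size of the shift and not by its direction. The BAT median without AKO replicate 1, counted among the 150, went from 0.02 to -0.01. The values for the named peaks were counted together with the motif counts other than ETS. Of these, 311 were counted as unchanged, 5 as weaker, 6 as stronger, 2 as moved and 8 as reversed. Peak values without an adjusted p were counted as unchanged if they kept their direction. The 2 moved values were the BAT counts of the FOX and ETS composite and of GATA over whole peaks. The median log2 fold change of the BAT peaks was 0.02 with PC1 and 0.22 without it, 0.20 by DESeq2 without PC1, an alternative added after the data were seen, which called 1 BAT peak higher, against 0.512% of all peaks. The Robo4 value reversed to 0.39 without PC1, also by DESeq2 and with replicate blocks in place of PC1. Scaling to total reads left 2 lower BAT peaks without overlap, and centring within GC classes left 7 higher iWAT peaks. In iWAT, DESeq2 called 1 lower peak, and edgeR called 2 lower and 3 higher. With PC1 as a covariate in iWAT, where it separates the genotypes, the median became -0.55, and Mmrn2 intron 1 (-0.26), Prox1 (-0.23), Sox7 upstream (-0.16), Sox7 start site (-0.77) and Tal1 (1.08) reversed. Requiring an overlap of at least 50% of both peaks left 29 of the 46 pairs. The cause of these shifts was not tested, and in iWAT the PC1 score and the genotype cannot be told apart. Over whole peaks, 6 BAT peaks held the FOX and ETS composite and 14 the GATA letters.

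Leaving out each sample in turn gave 0 calls by limma in either tissue, 5 to 10 lower and 16 to 38 higher BAT peaks without overlap and 8 to 11 and 13 to 21 in iWAT, where fewer samples make separation easier. The same omissions gave 12.3% to 16.9% of all BAT peaks lower and 11.4% to 19.8% higher, where the endothelial shares were 4.31% to 8.62% and 13.8% to 32.8%, and in iWAT 14.2% to 18.2% and 14.2% to 17.6%, against 12.9% to 17.7% and 21% to 33.9%. Shifts of over 1.5 times were to 8 lower BAT peaks without flox replicate 2 or 3 and 10 without AKO replicate 3, to 23, 29 and 38 higher BAT peaks without AKO replicate 1, AKO replicate 3 and flox replicate 3, to 11 lower iWAT peaks without AKO replicate 3 and to 21 higher ones without flox replicate 2. The same omissions gave medians from -0.01 to 0.08 in BAT and 0.05 to 0.15 in iWAT. Whether the replicate numbers pair the samples was not settled. The correlation of same-numbered samples was 0.49, 0.06 and -0.24 in BAT and -0.04, -0.05 and -0.06 in iWAT. In BAT, flox replicate 3 and AKO replicate 2 reached 0.48. These correlations cannot decide pairing, because deviations from a mean of 3 samples depend on each other. A replicate block changed no call and gave medians of 0.03 in BAT and 0.14 in iWAT, and 0.22 in BAT without PC1. Depth limits the weak peaks: 49 endothelial peaks in BAT and 8 in iWAT had too few reads, or too large a spread, for DESeq2 to give an adjusted p. With 3 samples against 3, an exact permutation test of a single peak cannot go below 0.1, and the iWAT aliquots carry no spread between mice.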
